A study of Gallus gallus with 6 samples.

Results

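MiR-194 and miR-215-5p are the mature products of a pair of neighbouring miRNA hairpins. They were picked by name, as every deposited row named miR-194 or miR-215 with any arm suffix, and the rule found 2 of the 565 listed mature chicken miRNAs, 1 product of each hairpin. The libraries are small RNA from the liver of Lushi green-shell hens, female and kept in cages with free access to feed. Each library was taken here as 1 hen, which the study's methods do not state outright. L20 stands for 3 hens at 20 weeks of age, labelled juvenile and described in the study as pre-laying, and L30 for 3 hens at 30 weeks, at peak laying, with L20 as the reference. Age and laying stage changed together between these groups and cannot be told apart. The data are from whole liver, so fewer cells of a type and less of a miRNA per cell cannot be told apart either.

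A miRNA is cut from a hairpin in a longer primary transcript, and hairpins that lie close together can be released from the same transcript. In mammals, miR-194 and miR-215 form such a cluster in an intron of IARS2, the gene of the mitochondrial isoleucyl-tRNA synthetase. Mammalian miR-215 shares its seed, the bases that pair with targets, with miR-192, whereas miR-194 has another seed, so that the partners are co-transcribed but do not bind the same target set. In mammals, both are abundant in epithelia of the liver, intestine and kidney, where hepatocyte nuclear factors drive them, and in human cells p53 induces them. In the RefSeq gene table for chicken (assembly GRCg7b, used here for names and neighbours only), MIR194-1 and MIR215 were adjacent, with 0 other genes starting between them. The spans of IARS2 and of the lncRNA LOC121113144 covered both, RAB3GAP2 was the nearest gene on one side of the pair and BPNT1 on the other. The mature sequences were not used here.

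The L20 libraries held 7135289 to 14822854 reads counted on known miRNAs, and the L30 libraries 3864984 to 8804077. Of all clean reads, this was 49.1% to 58.0% at 20 weeks and 18.2% to 45.0% at 30 weeks, so that a TPM value, the number of reads per 1000000 clean reads, also moves with this share. MiR-122-5p, the hepatocyte miRNA, was present in every library, at 49844 to 69839 TPM in L20 and 12705 to 37721 TPM in L30. It lay lower in every L30 library than in any L20 library but was not called (log2 fold change −1.07, edgeR adjusted p = 0.0622). The other product of its hairpin, miR-122-3p, was called lower in L30. In the edgeR test over all miRNAs described below, which called 24.6% of the tested miRNAs as lower in L30 and 0 as higher, some marker miRNAs of other cell types were called too. Of the endothelial markers (miR-126-5p and -3p), 2 of 2 were called lower in L30, with summed levels of 28732 to 42751 TPM in L20 and 6458 to 14792 TPM in L30. The counts called lower were 2 of 3 for the erythroid markers (1597 to 3182 TPM in L20 and 288 to 1197 TPM in L30) and 3 of 4 for the leukocyte markers (4627 to 6736 and 943 to 3664 TPM). They were 0 of 3 for the mesenchymal markers (2604 to 5506 and 1121 to 3214 TPM) and 1 of 6 for the epithelial markers (713 to 866 and 258 to 744 TPM). The leukocyte sum was mostly miR-142-5p, which was not called (6155 of 6736 TPM in L20-1). The erythroid sum was mostly miR-451, which was called (2457 of 2556 TPM in L20-1). Of the muscle markers (14.5 to 32.1 and 4.94 to 15.8 TPM), 1 of the 2 tested was called lower, and miR-1b-3p, which was not tested, was at 0 in all 3 L30 libraries. The part of cell composition in the results on miR-194 and miR-215-5p was not tested.

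MiR-215-5p was a miRNA of intermediate abundance. In the order of the replicate numbers, the L20 hens had 299, 78.3 and 106 TPM. The L30 hens had 51.8, 91.7 and 31.6 TPM in that order. L20-1 stood far above the other libraries, and the ages overlapped, because L30-2 lay above L20-2. The counts behind these values were 672 to 6069 reads, and the exact 95% Poisson interval of L20-2 (75.0 to 81.8 TPM) did not reach that of L30-2 (86.6 to 96.9 TPM), so the order of these 2 libraries exceeded counting error. These intervals cover the counting error of the reads only. The study's methods name no molecular identifiers, so PCR copies may count as separate reads and the intervals may be too narrow. Among the miRNAs detected in a library, which numbered 352 to 440, miR-215-5p ranked between 64 and 95.

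MiR-194 was scarce. The L20 hens, in the same order, had 12.1, 2.79 and 5.43 TPM. The L30 hens had 1.18, 1.93 and 0.752 TPM. Every L30 library lay below every L20 library. This separation is narrow at its closest point, because 74 reads in L20-2 gave an interval of 2.19 to 3.50 TPM and 26 reads in L30-2 gave 1.26 to 2.83 TPM, and these intervals overlap. The lowest count, 16 reads in L30-3, gave an interval of 0.430 to 1.22 TPM. MiR-194 ranked between 149 and 207 among the detected miRNAs, below miR-215-5p in each of the 6 libraries.

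**Figure D1:**
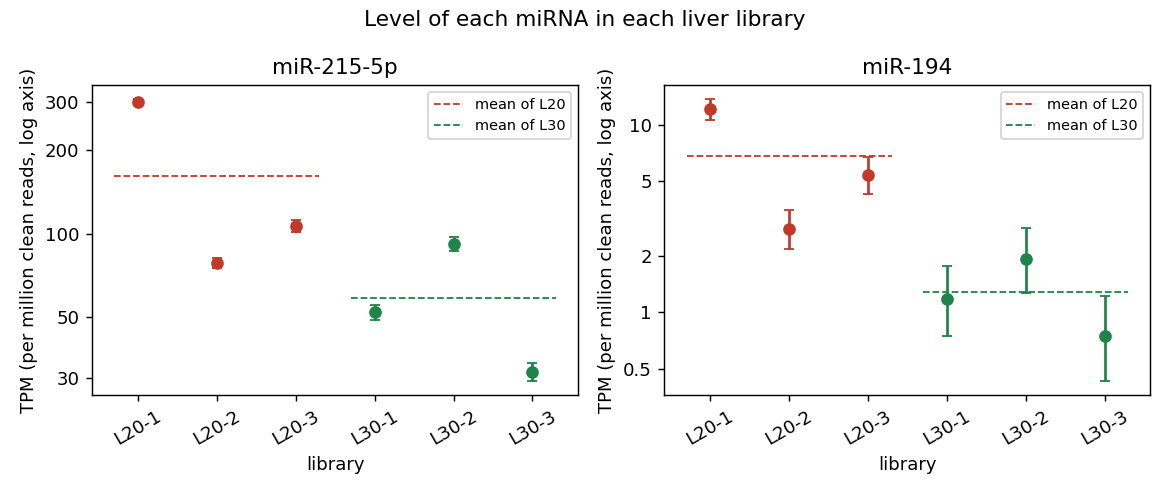
TPM (log axis) of miR-215-5p (left) and miR-194 (right) in each of the 6 libraries, with exact 95% Poisson intervals as bars and the mean of each age as a dashed line. L20-1 is the highest library for both miRNAs, miR-215-5p overlaps between the ages through L30-2 (91.7 TPM) and L20-2 (78.3 TPM), and miR-194 does not overlap.

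The partners ordered the libraries of each age in the same way. In L20, both were highest in L20-1 and lowest in L20-2, 3.82-fold apart for miR-215-5p and 4.35-fold for miR-194. In L30, both were highest in L30-2 and lowest in L30-3, 2.90-fold and 2.57-fold apart. As a share of the counted miRNA reads, the order within L20 was the same, with folds of 3.68 and 4.19. Within L30, L30-2 was again the highest on this scale, but L30-1 was the lowest for both, with folds of 2.40 and 2.23.

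The age comparison was made with edgeR's quasi-likelihood test over the 236 miRNAs that passed a filter on low counts, scaled to the clean reads. A miRNA was called where its adjusted p did not exceed 0.05. In all, 58 of the 236 (24.6%) were called, all as lower in L30, and the median log2 fold change was −0.86. This one-sidedness depended on the scaling. TMM factors gave 56 lower and 23 higher, the summed counts 38 and 30, DESeq2 size factors 39 and 33, and upper quartile factors 25 and 42. Both partners were among the 58. MiR-194 averaged 6.78 ± 4.81 TPM at 20 weeks and 1.29 ± 0.598 TPM at 30 weeks (SD, n = 3 each). Its log2 fold change was −2.40 ± 0.65 (SE) at an edgeR adjusted p of 0.00279, and 7 of the 236 had a lower one. MiR-215-5p averaged 161 ± 120.2 and 58.3 ± 30.6 TPM (SD, n = 3 each). Its log2 fold change was −1.47 ± 0.56 (SE) at an edgeR adjusted p of 0.0414, and 59 had a lower one. Absence of overlap, which miR-194 showed and miR-215-5p did not, was common in these data, with 46.2% of the tested miRNAs lying lower in every L30 library than in any L20 library. When the fit included a block for the replicate number, 90 miRNAs were called instead of 58, both partners among them. Same-numbered libraries come from different hens, and the block was a pairing taken from these data alone, so these calls add no separate support.

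Neither call was stable. Leaving out L20-1, the library highest in both miRNAs, brought the log2 fold change of miR-215-5p to −0.66 (edgeR adjusted p = 0.524) and that of miR-194 to −1.68 (edgeR adjusted p = 0.116). MiR-215-5p was called in 0 of the 6 fits that left out 1 library (edgeR adjusted p from 0.0786 to 0.524). MiR-194 was called in 3 of the 6, and also lost its call without L30-2 (edgeR adjusted p = 0.0548) and without L30-3 (0.0670). The number of all miRNAs called ranged from 3 to 103 in these fits, and 3 was reached without L30-2.

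The size of the fall depended on the scaling, and its direction did not. With TMM factors, miR-194 was called lower (log2 fold change −1.71, edgeR adjusted p = 0.0463), where 24% of the tested miRNAs were called lower, and miR-215-5p was not called (−0.77, edgeR adjusted p = 0.272). With the summed miRNA counts as the total of each library, neither was called, at −1.57 (edgeR adjusted p = 0.0638) for miR-194 and −0.63 (edgeR adjusted p = 0.381) for miR-215-5p, where 16.2% were called lower. The median over all tested miRNAs moved in parallel, to −0.23 with TMM factors and −0.07 with the summed counts. Relative to the median of the same fit, miR-194 lay between −1.55 and −1.41 under the 6 scalings tried with edgeR, and miR-215-5p between −0.62 and −0.46. A change of scaling moves all miRNAs by nearly the same amount, so these narrow ranges follow from the measure and add no separate support. These relative values depended on L20-1 too. Without it, under the clean reads, they were −0.92 for miR-194 and 0.10 for miR-215-5p.

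**Figure D2:**
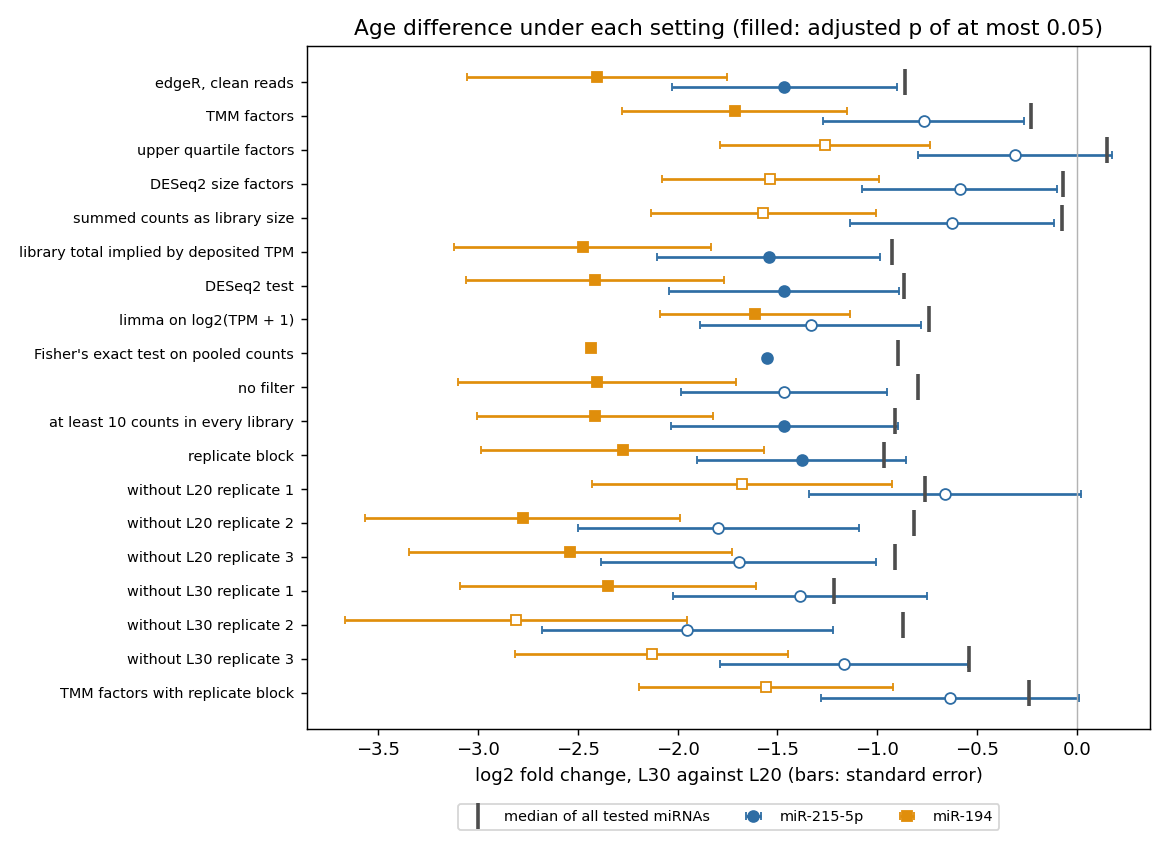
Log2 fold change of L30 against L20 for miR-215-5p (circles) and miR-194 (squares) under each setting, with the standard error as bars where one was available, filled symbols for called values, and a vertical tick for the median of all tested miRNAs. For edgeR and limma, the standard error was worked back from the fold change and its test statistic. Both miRNAs lie below 0 in every setting, miR-194 always below miR-215-5p. Only miR-215-5p without L20-1, at −0.66, lies above the median tick (−0.76).

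The partners can be compared within a library with no scaling at all. By replicate number, the L20 libraries held 24.7, 28.1 and 19.5 reads of miR-215-5p per read of miR-194. The L30 libraries held 44.0, 47.4 and 42.0. All 3 L30 libraries lay above all 3 L20 libraries, and the mean rose from 24.1 ± 4.32 to 44.5 ± 2.74 (SD, n = 3 each). On the log2 scale, the ratio of miR-194 to miR-215-5p was −4.58 ± 0.27 in L20 and −5.47 ± 0.09 in L30 (SD, n = 3 each), a difference of −0.90, so that miR-194 was 1.86-fold lower relative to its partner in L30. The exact two-sided permutation test gave p = 0.1, the lowest value possible with 3 hens in each group, and 0.3 after adjustment over the 9 ratios compared. The ages thus did not overlap in this ratio, and a permutation test of 3 libraries against 3 cannot pass 0.05.

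With each library left out in turn, the difference in this log2 ratio stayed between −1.02 and −0.75. Its precision is set by the few reads of miR-194. The exact binomial 95% intervals were 21.7 to 28.1 reads of miR-215-5p per read of miR-194 in L20-1, 22.3 to 35.9 in L20-2 and 15.6 to 24.8 in L20-3. Those of the L30 libraries were 29.2 to 69.8, 32.2 to 72.9 and 25.7 to 73.9 in replicate order. The interval of L20-2 thus overlapped those of all 3 L30 libraries, that of L20-1 overlapped only that of L30-3, and that of L20-3 overlapped none.

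**Figure D3:**
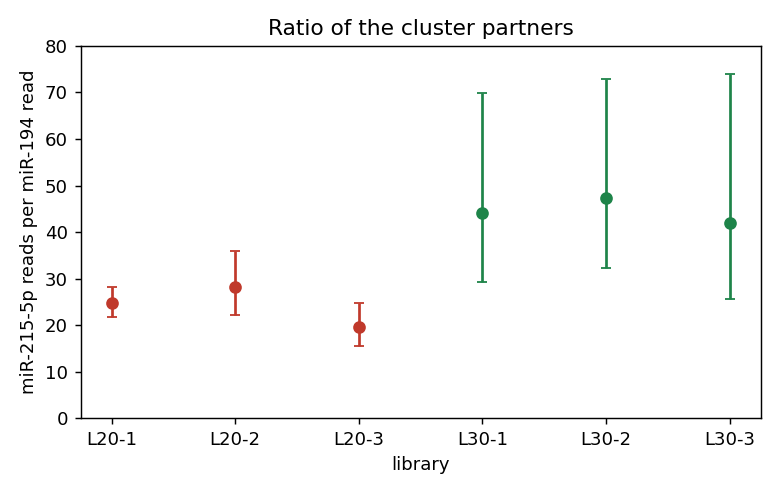
Reads of miR-215-5p per read of miR-194 in each library, with exact binomial 95% intervals as bars (counting error only). The L20 libraries lie between 19.5 and 28.1 and the L30 libraries between 42.0 and 47.4.

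Of the miRNAs compared, each partner's closest profile was that of the other. Likeness was measured as the SD over the 6 libraries of the log2 ratio of counts, which is free of library scaling and is smaller for profiles that run in parallel. It is a description, since the 6 points share the age contrast and the depth of their libraries. Among the 124 miRNAs with at least 100 reads in every library, miR-215-5p was the closest to miR-194, with an SD of 0.52 against a median of 1.06. MiR-126-3p (0.64) and miR-126-5p (0.74), both endothelial, miR-218-5p (0.67) and miR-16-5p (0.77) followed. When the minimum was lowered to 10 reads, which miR-194 itself meets, miR-194 was the closest of 184 miRNAs to miR-215-5p (0.52, median 0.89).

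Within the ages, the spread between the partners was smaller, which follows from taking out the age difference in their ratio. When the mean of each age was taken out of the log2 ratio, the SD between the partners was 0.20, the smallest of the 184 for either partner, against medians of 0.89 for miR-194 and 0.86 for miR-215-5p. The next was miR-130c-5p, at 0.36 from miR-194 and 0.32 from miR-215-5p. MiR-194 had only 16 to 26 reads in the L30 libraries, and counting error was not taken out of these SDs. The L30 ratios of 42.0 to 47.4 reads of miR-215-5p per read of miR-194 all lay inside the counting interval of each L30 library. An SD of 0.20 thus may not exceed counting error, which was not tested. Whether 0.20 and 0.36 differ beyond that error was not tested. In L20, both partners and miR-130c-5p were highest in L20-1. MiR-130c-5p had 2.86 TPM there, against 0.791 in L20-2 and 1.03 in L20-3. Likeness was not measured with L20-1 left out, so the part of this library in the closeness was not tested. Among the miRNAs with at least 100 reads in every library, which miR-194 does not reach, those closest to miR-215-5p over the 6 libraries were miR-199-5p, a mesenchymal miRNA (0.59), miR-100-3p (0.61), miR-33-5p, which lies in a sterol regulator gene in vertebrates (0.63), miR-1552-5p (0.63) and miR-29c-3p (0.65). These values lie close together and their order is not separated.

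**Figure D4:**
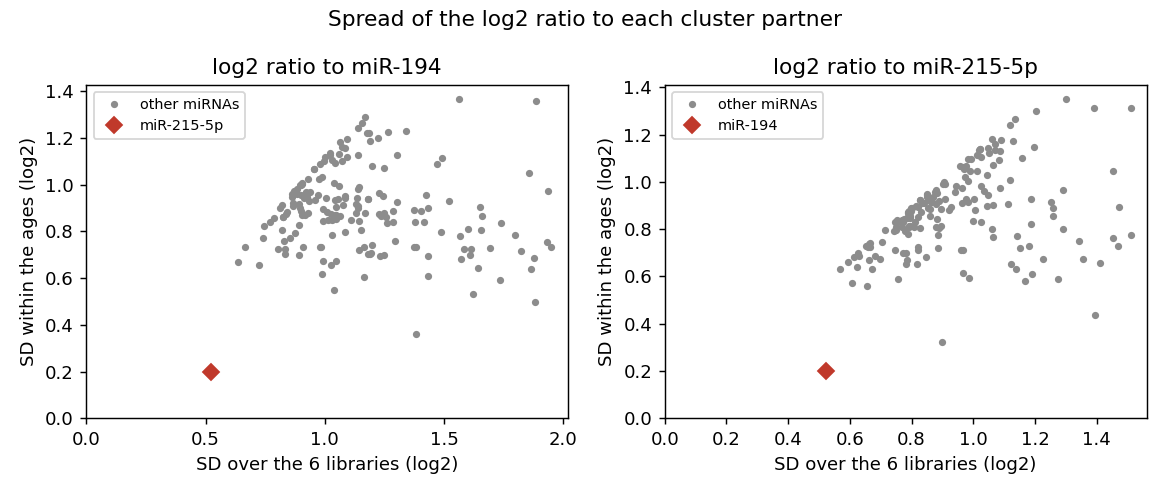
SD of the log2 ratio of counts to miR-194 (left) and to miR-215-5p (right) for the 184 other miRNAs with at least 10 reads in every library, over the 6 libraries (x axis) and after removing the mean of each age (y axis). The red diamond is the cluster partner, at 0.52 and 0.20, the lowest on both axes in both panels.

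Against abundant miRNAs of the liver, the pair stood far below. MiR-122-5p was itself lower in TPM in every L30 library than in any L20 library, so a steady ratio to it is not a steady level. Per read of miR-122-5p, the log2 ratio of miR-215-5p was −8.70 ± 1.20 in L20 and −8.85 ± 0.58 in L30 (SD, n = 3 each), a difference of −0.16 that lay within the spread between libraries (exact two-sided permutation test, p = 1). MiR-194 was at −13.3 ± 1.29 and −14.3 ± 0.56 relative to miR-122-5p, a difference of −1.05 with overlapping ages (exact permutation test, p = 0.3), which became −0.44 without L20-1 and −1.72 without L20-2. Relative to the endothelial miR-126-5p, which also fell, the differences were 0.42 for miR-215-5p (exact permutation test, p = 0.6) and −0.48 for miR-194 (p = 0.5), both within the spread.

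The contrast was larger against miR-22-3p and miR-148a-3p, the most abundant miRNAs of these livers, which were not called between the ages under the clean reads. The study, with another test, reported both as significantly lower in L30, and its qRT-PCR gave the same direction. MiR-194 was lower in L30 by a log2 difference of −1.73 relative to miR-22-3p and −1.85 relative to miR-148a-3p, with no overlap between the ages in either ratio (exact permutation test, p = 0.1 each, 0.3 adjusted over the 9 ratios). MiR-215-5p had differences of −0.83 and −0.95 with overlapping ages (exact permutation test, p = 0.4 and 0.2). No ratio passed an adjusted p of 0.05.

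**Figure D5:**
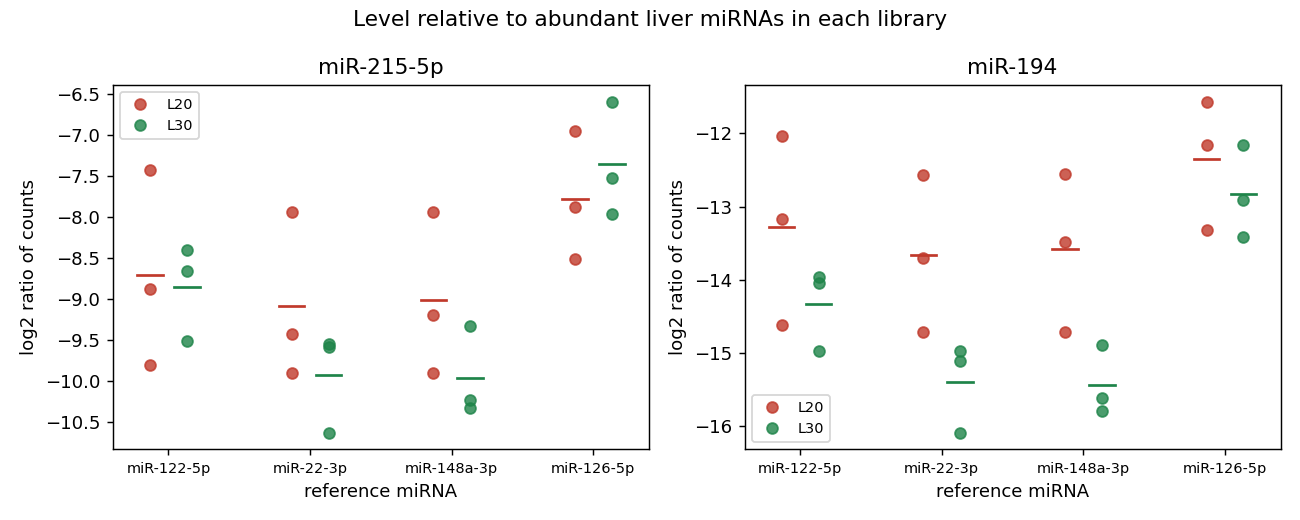
Log2 ratio of the counts of miR-215-5p (left) and miR-194 (right) to those of 4 other liver miRNAs in each library (points), with the mean of each age as a line. The ages are separated for miR-194 against miR-22-3p and miR-148a-3p, and overlap in the other 6 ratios.

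As a share of the counted miRNA reads, the pair overlapped between the ages. Of every 1000000 counted reads, by replicate number, miR-215-5p took 516, 140 and 216 at 20 weeks and 115, 276 and 174 at 30 weeks (exact two-sided permutation test on the means, p = 0.6). MiR-194 took 20.9, 4.99 and 11.1 in L20 and 2.61, 5.82 and 4.14 in L30 (p = 0.2, exact permutation test). On this scale L30-2 lay above L20-2 for miR-194 as well, so the separation of the ages seen in TPM was lost. Without L20-1, the mean log2 share of miR-215-5p was 0.021 higher in L30.

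The miR-34 family, which p53 also induces in human cells, was listed with 6 products, of which 2 passed the filter. MiR-34a-5p was called lower in L30 (log2 fold change −1.42 ± 0.55 (SE), edgeR adjusted p = 0.0414), and miR-34a-3p was not (−0.48, edgeR adjusted p = 0.567). Their summed level with the other 4 was 288 to 393 TPM in L20 and 47.4 to 230 TPM in L30. L20-1, the highest library for miR-194 and miR-215-5p, was the lowest L20 library for this sum. MiR-34a-5p made up 279 of the 288 TPM there, so the sum describes mostly this product. The part of p53 in these levels was not tested.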

How the data were processed

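According to the methods, the authors trimmed and filtered the reads (Fastx toolkit) and matched them to miRBase (CLC Genomics Workbench) with some mismatches and ragged ends allowed, so closely similar miRNAs may share reads. The authors deposited the read count of each of 565 mature miRNAs in each library and TPM values. The deposited TPM imply library totals that match the study's raw reads, although its methods name clean reads. TPM values were therefore computed anew with the study's clean reads as totals. All 6 libraries were mapped by title, and 0 value columns were left over.

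The age comparison used edgeR 4.0.16 in R 4.3.3 on the counts (robust glmQLFit, glmQLFTest, filterByExpr with a minimum count of 10 and minimum total of 15) with Benjamini-Hochberg adjustment over all tested miRNAs. The standard errors of edgeR and limma fold changes were worked back from the fold change and its test statistic. Ratios and shares used exact permutation tests over 20 regroupings. Other scalings (TMM, upper quartile, DESeq2 size factors, summed counts, the total implied by the deposited TPM), other tests (limma 3.58.1 with a pseudocount of 1 TPM, DESeq2 1.42.0, Fisher's exact test after pooling), other filters, a replicate block and leaving out each library were tried. The edgeR, DESeq2 and limma fits were also run on simulated counts, with as many miRNAs raised as lowered and with known library totals. That setting does not examine a one-sided difference or the choice of scaling. Same-numbered libraries of the ages come from different hens, but their deviations from the age means correlated at 0.119, 0.171 and 0.188 across the tested miRNAs, each over 0.1, so the block was used as a pairing taken from the data alone. The named miRNAs were the pair, 4 reference miRNAs and the 5 closest profiles to each partner, together with the marker and miR-34 lists. MiR-130c-5p was added after its value was seen. The ratio of the hairpins' arms could not be computed, since only 1 product of each hairpin was listed. The members and lists were chosen with earlier results of these data known. Figures were drawn with matplotlib 3.10.9.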

Additional observations from a re-analysis of the deposited data

How the results depend on the processing

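Both partners were lower in L30 in every fit of the age comparison. MiR-215-5p was no longer called with TMM factors (−0.77), upper quartile factors (−0.31), DESeq2 size factors (−0.59), summed counts for scaling (−0.63), limma (−1.33) and no filter on low counts (−1.47, edgeR adjusted p = 0.0529). MiR-194 was no longer called with upper quartile factors (−1.26), DESeq2 size factors (−1.54) and the summed counts (−1.57). With TMM factors and the replicate block together, added after seeing the data, neither was called (−0.64 for miR-215-5p and −1.56 for miR-194). With each library left out in turn, the log2 fold change ranged from −1.95 to −0.66 for miR-215-5p and from −2.81 to −1.68 for miR-194. The block alone changed neither partner's call, at −1.38 and −2.27. The difference of −0.90 in the ratio of the partners cannot move under such a block, because the pairing is balanced, so it says nothing on stability. The number of miRNAs called was 58, against 205 with Fisher's exact test on pooled counts, 90 with the replicate block and 3 to 103 with a library left out.

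The ratio of miR-215-5p to miR-122-5p changed sign without L20-1 (0.48) and without L30-1 (0.17), within a range of −0.71 to 0.48. The share of counted reads of miR-215-5p changed sign without L20-1 (0.021), within −0.92 to 0.021 on the log2 scale. The other ratios kept their direction, but those to miR-126-5p nearly lost it when a library was left out. They ranged from 0.038 to 0.84 for miR-215-5p and from −0.96 to −0.086 for miR-194. MiR-215-5p stayed the closest profile to miR-194 in each setting that included it, none of which left out a library. The miRNAs with at least 100 reads are part of those with at least 10 reads. First place in the larger set thus fixes it in the smaller, and the change of minimum adds no separate support. At 16 to 26 reads in L30, the level of miR-194 there has a wide counting error. The causes of these shifts were not tested.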
